A study of Mus musculus with 11 samples.

Results

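Voltage-gated and related ion channels set the electrical behaviour of the muscle fibre membrane, and 146 genes of their families are on the array used here. They were taken by symbol, as Scn followed by a digit (voltage-gated sodium channels), Cacn (voltage-gated calcium channels), Clcn (chloride channels and exchangers), Hcn (pacemaker channels) and Kcn (potassium channels). A gene was kept when its mean signal on the linear scale was 30 or more in at least 1 of 3 groups of mice, which left 65 genes, and 81 were below this limit in all groups. Where several probe sets report 1 gene, the brightest one stands for it. The families cover 171 probe sets, in a table of 21759 gene symbols of which 11844 have a probe set past the same limit.

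The kept genes comprise 3 sodium channel pores, 4 sodium channel beta subunits, 5 calcium channel pores, 7 other calcium channel subunits, 7 chloride channels and exchangers, 2 pacemaker channels and 37 potassium channel genes. The genes were chosen by their mean signal in the 3 groups, and 53 were at 30 or more in all 3 groups, 6 in 2 groups and 6 in only 1. Of the last 6, 4 passed through C57 mice, among them *Kcng2*, *Kcnmb3* and *Scn2b*, and *Kcne1l* and *Kcnf1* passed through *mdx* mice. All 6 could enter only where they were high, so their differences are given as description. The counts of calls below still include *Kcnf1* and a gene that passed only through C57 mice. Just inside the limit the highest group mean was 30.5 for *Kcnf1* and 31.0 for *Kcne1l*, and just outside it was 29.6 for *Kcnk2* and 29.4 for *Kcnh8*. The muscle genes *Kcne3*, *Kcnab1* and *Kcnip2* were also below the limit.

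In a muscle fibre, sodium channels fire the action potential, potassium channels repolarise the membrane, and a large resting chloride conductance keeps it from firing again on its own. The calcium channel of the transverse tubule acts mainly as the voltage sensor that opens the calcium store of the sarcoplasmic reticulum. Many channels pair a pore with auxiliary or modifier subunits, and several families are also used by nerve, vessel wall and immune cells that lie within a muscle.

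Messenger RNA was measured in the TA, a fast muscle of the lower leg, of 11 mice at 14 weeks of age with 1 Mouse Gene ST 1.1 array per mouse. The 3 C57 mice were wild-type animals of the C57/B10 strain with no treatment. The 4 *mdx* mice carry a *Dmd* mutation that prevents production of dystrophin, on the same background, and were not treated either. The 4 treated mice were *mdx* mice injected once, at 12 weeks, with 12.5 mg/kg of Pip6e-PMO by the intravenous route, a peptide-linked antisense oligonucleotide that makes the splicing machinery skip the mutated exon. All mice were male according to the study's methods. The *mdx* mouse is a model with milder weakness than the human disease, and its muscle holds dying, regenerating and mature fibres together.

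All values are log2 of the normalised array signal unless stated otherwise, and a difference of 1 is therefore 2-fold. Levels of different genes are not set against each other, since each probe set has its own response. A gene was called at an adjusted p under 0.05 in limma's moderated test, with the Benjamini-Hochberg adjustment taken over the whole table of 14494 probe sets past the limit. Each mean is followed by the SD over the mice of the group, with n = 3 for C57 and n = 4 for *mdx* and treated mice. The median linear signal of an array lay between 27.5 and 28.6. The array of treated mouse 2 stood apart over all tested probe sets, with a median absolute difference of 0.257 from the mean of the other treated mice, against 0.103 to 0.177 for the other 10 arrays within their groups. Over the 65 channel genes its value was 0.160, within the range of the other arrays (0.100 to 0.185). For *Dmd* itself C57 mice lay between 5.77 and 5.87, *mdx* mice between 4.60 and 5.82 and treated mice between 5.51 and 6.34, so the groups overlapped and it does not separate the labels.

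Whole TA sections hold more than fibres. Of 8 skeletal muscle markers, including *Acta1*, *Ckm* and *Myh4*, none was called in any comparison by limma or by the methods' t-test after adjustment, with 0, 0 and 1 at an unadjusted p under 0.05 in limma for *mdx* against C57, treated against *mdx* and treated against C57 mice. Macrophage markers were higher in *mdx* than in C57 mice for 6 of 7 measured (*Cd68* by 2.12), and their linear signals summed to 940 to 1371 in the C57 mice, to 2472 to 3941 in the untreated *mdx* mice and to 2045 to 2605 after treatment. Regenerating fibre markers were higher in *mdx* for 7 of 8, with sums of 794 to 961, 1720 to 2594 and 1008 to 1821. Nerve sheath markers were lower in *mdx* for 3 of 5 (*Mbp* and *Sox10* among them), with sums of 1722 to 2683, 1312 to 1659 and 1241 to 1478. All 6 T cell markers were below the limit of 30 in all groups. In such a bulk sample, fewer cells of a type and less RNA per cell cannot be told apart. The part of these cell types in the channel differences was not tested.

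The genes *Kcng4*, *Kcnc4*, *Clcn1* and *Kcnn3*, on which the results below turn, have 1 listed start each in the RefSeq annotation, and the 250 bases before it are shown to place them in the genome. *Kcng4* lies on chr8:119635681-119635930 (minus strand), *Kcnc4* on chr3:107458899-107459148 (minus), *Clcn1* on chr6:42286435-42286684 (plus) and *Kcnn3* on chr3:89519914-89520163 (plus), all in build GRCm38.p6. The first 3 fell in *mdx* and *Kcnn3* rose. Each runs 5′ to 3′ towards the start, and capitals mark CANNTG, the E-box read by MyoD-family and clock factors, which is its own reverse complement.
Kcng4: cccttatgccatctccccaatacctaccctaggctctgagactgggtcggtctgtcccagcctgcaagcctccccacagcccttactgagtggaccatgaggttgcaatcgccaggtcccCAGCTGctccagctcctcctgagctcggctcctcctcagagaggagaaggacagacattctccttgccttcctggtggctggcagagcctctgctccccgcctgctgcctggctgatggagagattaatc
Kcnc4: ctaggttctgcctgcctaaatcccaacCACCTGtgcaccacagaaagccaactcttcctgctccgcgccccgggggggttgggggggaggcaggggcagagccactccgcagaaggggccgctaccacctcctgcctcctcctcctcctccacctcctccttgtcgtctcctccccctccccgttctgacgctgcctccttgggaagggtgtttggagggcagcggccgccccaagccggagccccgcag
Clcn1: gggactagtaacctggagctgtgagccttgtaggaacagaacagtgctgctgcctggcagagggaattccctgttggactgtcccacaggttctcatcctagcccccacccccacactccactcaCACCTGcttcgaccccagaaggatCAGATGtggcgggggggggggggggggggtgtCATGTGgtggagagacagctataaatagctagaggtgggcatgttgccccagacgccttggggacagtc
Kcnn3: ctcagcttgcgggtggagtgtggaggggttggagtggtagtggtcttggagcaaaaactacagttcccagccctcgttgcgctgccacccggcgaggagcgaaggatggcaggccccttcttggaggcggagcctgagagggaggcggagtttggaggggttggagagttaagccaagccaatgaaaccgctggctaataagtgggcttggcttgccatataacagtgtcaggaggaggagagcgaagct
The *Clcn1* window holds 3 such matches, those of *Kcng4* and *Kcnc4* hold 1 each, and that of *Kcnn3* holds 0. RefSeq windows were found for 45 of the 65 genes, 60 windows in all, and 39 of them (65%) held CANNTG, against 66.2% of all 32851 windows. The form CACGTG was in 6 of the 60 (10%) and in 6.02% of all windows. A match describes the letters and not a bound site.

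The comparison of *mdx* with C57 mice asks how channel transcripts differ in dystrophic muscle. Of the 65 genes, 11 were called lower and 4 higher. The pore of the muscle sodium channel *Scn4a*, the muscle chloride channel *Clcn1*, the potassium channel pore *Kcnc4* and the modifier subunit *Kcng4*, and the calcium-activated channels *Kcnma1* and *Kcnn2* were all lower. *Kcnn3*, *Kcnq5* and *Clcn5* were higher. The fourth gene called higher, *Kcnf1*, entered the list only through the *mdx* mice and is given as description. A gene among the 11 called lower entered only through the C57 mice, where it was high, and is counted in the same way. Falls reached 1.20 (*Kcnn2*, 2.30-fold lower) and rises 1.00 (*Clcn5*, 2.00-fold higher). On the linear scale the *mdx* mean of *Kcnn2* was 29.9, just under the limit of 30.

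The 15 called genes are 23.1% of the 65, against 12% of all tested probe sets. By direction, 6.15% of the channel genes rose, against 7.06% of all probe sets, and 16.9% fell, against 4.96%. Among the 53 genes at 30 or more in every group, 3 rose and 9 fell. The median difference over the 65 was -0.14, against -0.01 over all tested probe sets, and the differences ran from -1.20 to 1.00. For 28 genes (43.1%) the *mdx* and C57 mice did not overlap, 11 higher and 17 lower, against 24.3% of all probe sets (13.1% higher and 11.3% lower). At an unadjusted p under 0.05 there were 30 of the 65 channel genes, against 3614 of all 14494 probe sets (24.9%).

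**Figure D1:**
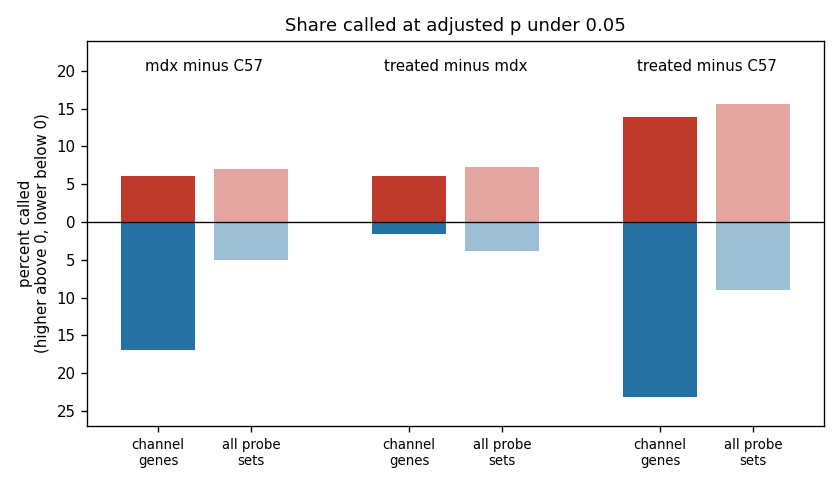
Percent of the 65 channel genes and of all 14494 tested probe sets called at an adjusted p under 0.05, higher above and lower below 0, in each comparison. Falls in mdx against C57 mice make up 16.9% of channel genes and 4.96% of all probe sets, while rises differ little.

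Among the sodium channels, *Scn4a* read 11.22, 11.38 and 11.31 in C57 mice 1 to 3, 10.64, 10.58, 10.84 and 10.89 in *mdx* mice 1 to 4, and 11.02, 10.91, 10.88 and 10.92 in treated mice 1 to 4. Every C57 mouse was above every *mdx* and treated mouse. The *mdx* mean of 10.74 ± 0.15 was 0.57 below the C57 mean of 11.30 ± 0.08 (SE 0.10, adjusted p = 0.00329), or 1.48-fold lower. *Scn4b*, a beta subunit, read 10.83, 10.79 and 10.94 in C57 and 10.54, 10.22, 10.39 and 10.52 in *mdx* mice. Its groups did not overlap, and it fell by 0.44 (SE 0.10, adjusted p = 0.0163), a call that was lost without C57 mouse 3 (adjusted p = 0.0709), by the methods' t-test (0.0705) and with the replicate number as a block (0.0615). *Scn7a*, an atypical sodium-sensing channel, *Scn2a1*, *Scn2b* and *Scn3b* were not called.

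None of the 5 calcium channel pores was called by limma, with 1 at an unadjusted p under 0.05, and the methods' t-test after adjustment also called 0. The voltage sensor *Cacna1s* read 11.74 to 11.93 in C57 and 11.58 to 11.75 in *mdx* mice, which overlapped (difference -0.14, SE 0.09, adjusted p = 0.353). *Cacng1*, the gamma subunit of the muscle channel, differed by 0.19 (adjusted p = 0.254) and *Cacnb1*, its beta subunit, by -0.19 (adjusted p = 0.174). *Cacng7* was the exception among the 7 subunits. It belongs to the gamma subunits best known for their work with glutamate receptors in the brain. It read 8.98, 9.23 and 9.19 in C57 and 7.60, 8.37, 8.18 and 8.27 in *mdx* mice. The groups were well apart, with *mdx* mouse 1 the lowest, and the gene fell by 1.03 (SE 0.16, adjusted p = 0.00155). The methods' t-test gave an adjusted p of 0.0659.

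*Clcn1* carries most of the resting chloride conductance of muscle, and its loss causes myotonia. It read 10.28, 10.38 and 10.31 in C57, 9.67, 9.71, 9.64 and 9.88 in *mdx*, and 9.99, 9.97, 9.97 and 9.97 in treated mice. The 3 groups formed separate bands, with C57 highest and *mdx* lowest. In *mdx* it fell by 0.60 (SE 0.09, adjusted p = 0.000968), or 1.51-fold. *Clcn5*, an endosomal chloride-proton exchanger, moved the other way, from 5.25, 5.30 and 4.85 in C57 to 6.09, 6.20, 6.09 and 6.16 in *mdx* mice. No C57 mouse came near the *mdx* mice, and it rose by 1.00 (SE 0.16, adjusted p = 0.00197). The other 5 genes of the class, *Clcn2*, *Clcn3*, *Clcn4-2* (now named *Clcn4*), *Clcn6* and *Clcn7*, were not called, with differences of -0.34 to -0.08. The pacemaker channels *Hcn2* and *Hcn4* were not called either.

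**Figure D2:**
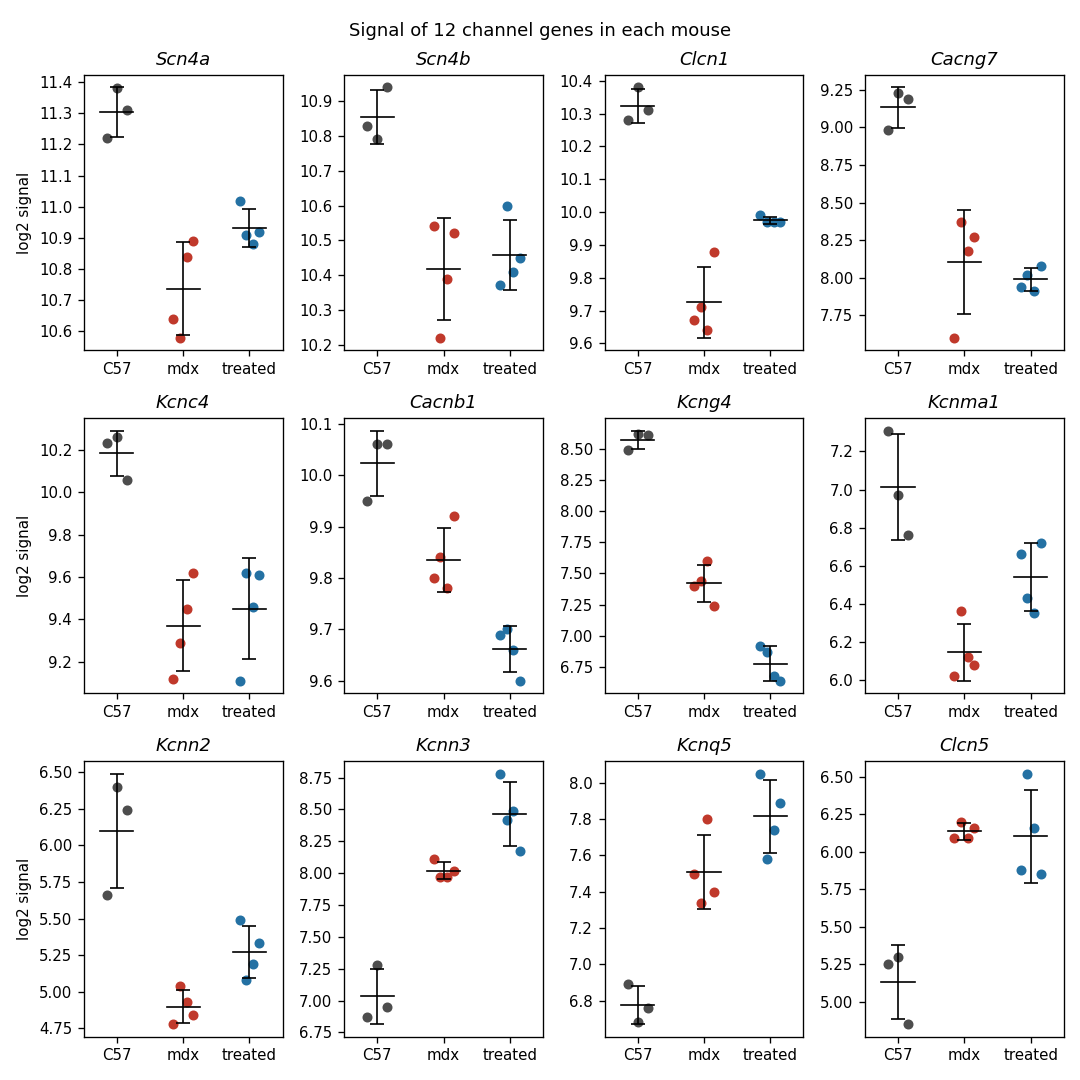
Log2 signal of 12 channel genes in each mouse (points), with the group mean and SD (black), for 3 C57, 4 mdx and 4 treated mice. Each panel has its own scale. Kcng4 steps down from C57 to mdx to treated mice and Kcnn3 steps up, while Clcn1 in treated mice lies between both control groups.

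Of 14 voltage-gated potassium pores, 4 fell and 1 rose. *Kcnc4*, a fast-gating pore of the Shaw family, read 10.23, 10.26 and 10.06 in C57 and 9.12, 9.29, 9.45 and 9.62 in *mdx* mice. The highest *mdx* mouse was below the lowest C57 mouse. *Kcnc4* fell by 0.81 (SE 0.15, adjusted p = 0.00381), or 1.76-fold. *Kcna1*, a pore best known in axons, read 5.35, 5.54 and 5.78 in C57 and 5.22, 4.93, 5.15 and 5.11 in *mdx* mice. The groups did not overlap, and it fell by 0.45 (SE 0.13, adjusted p = 0.0466). The call for *Kcna1* was lost without any 1 of C57 mice 2 and 3, *mdx* mice 1 to 4 and treated mice 3 and 4, with an adjusted p of up to 0.190.

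*Kcnq5*, a pore of the family that carries the slow M current, was the riser of this class. It read 6.89, 6.68 and 6.76 in C57 and 7.50, 7.34, 7.80 and 7.40 in *mdx* mice, without overlap. The rise was 0.73 (SE 0.14, adjusted p = 0.00446), or 1.66-fold. *Kcna3*, *Kcna5*, *Kcna7* and *Kcnc1* were not called, with differences of -0.26 to -0.05 and adjusted p-values of 0.467 to 0.875.

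*Kcng4* encodes a subunit that forms no channel alone and changes the gating of the delayed rectifier pores it joins, and it had the smallest adjusted p of the 65 genes. It read 8.49, 8.62 and 8.61 in C57, 7.40, 7.44, 7.60 and 7.24 in *mdx*, and 6.92, 6.87, 6.68 and 6.64 in treated mice. The lowest C57 mouse was above the highest *mdx* mouse, and the lowest *mdx* mouse above the highest treated mouse. It fell by 1.15 in *mdx* (SE 0.11, adjusted p = 4.74e-05), or 2.22-fold. Another silent subunit, *Kcnf1*, read 4.22 to 4.67 in C57 and 4.78 to 5.04 in *mdx* mice, a difference of 0.55. It reached the limit of 30 only in the *mdx* mice, so it could enter only where it was high, and its difference is given with no test although it is counted among the 15. *Kcng1* and *Kcng2* were not called.

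Calcium-activated potassium channels moved both ways. *Kcnma1*, the large-conductance channel, read 7.31, 6.97 and 6.76 in C57 and 6.02, 6.36, 6.12 and 6.08 in *mdx* mice. *Kcnn2*, a small-conductance channel, read 5.66, 6.40 and 6.24 in C57 and 4.78, 5.04, 4.93 and 4.84 in *mdx* mice. Neither gene's groups overlapped, and C57 mouse 1 was the highest for *Kcnma1* and the lowest of its group for *Kcnn2*. They fell by 0.87 (SE 0.14, adjusted p = 0.00237) and 1.20 (SE 0.16, adjusted p = 0.000661). The methods' t-test gave an adjusted p of 0.0514 for *Kcnma1*.

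*Kcnn3*, the small-conductance channel known to appear in denervated muscle, went from 6.87, 7.28 and 6.95 in C57 to 8.11, 7.97, 7.97 and 8.02 in *mdx* mice. The *mdx* mice lay close together and far above C57. It rose by 0.98 (SE 0.14, adjusted p = 0.000937), or 1.98-fold. *Kcnn4*, the intermediate-conductance channel of blood and immune cells, read 4.74 to 5.21 in C57 and 5.14 to 6.09 in *mdx* mice, which overlapped, and its difference of 0.59 was not called (adjusted p = 0.111). *Kcnmb1* and *Kcnmb3* were not called. *Kcnn1* was lower by 0.27 without overlap, and limma did not call it (adjusted p = 0.0529). It was called under 5 alternatives, among them the methods' t-test after adjustment.

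None of the 4 auxiliary potassium subunits, 5 inward rectifiers and 3 tandem-pore channels was called by limma, with 2 in each class at an unadjusted p under 0.05 and 0 by the methods' t-test after adjustment. Among the inward rectifiers, *Kcnj2* differed by -0.02, *Kcnj12* by -0.27, *Kcnj11*, the pore of the muscle ATP-sensitive channel, by -0.19, and *Kcnj8*, its counterpart in vessels, by -0.15.

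**Figure D3:**
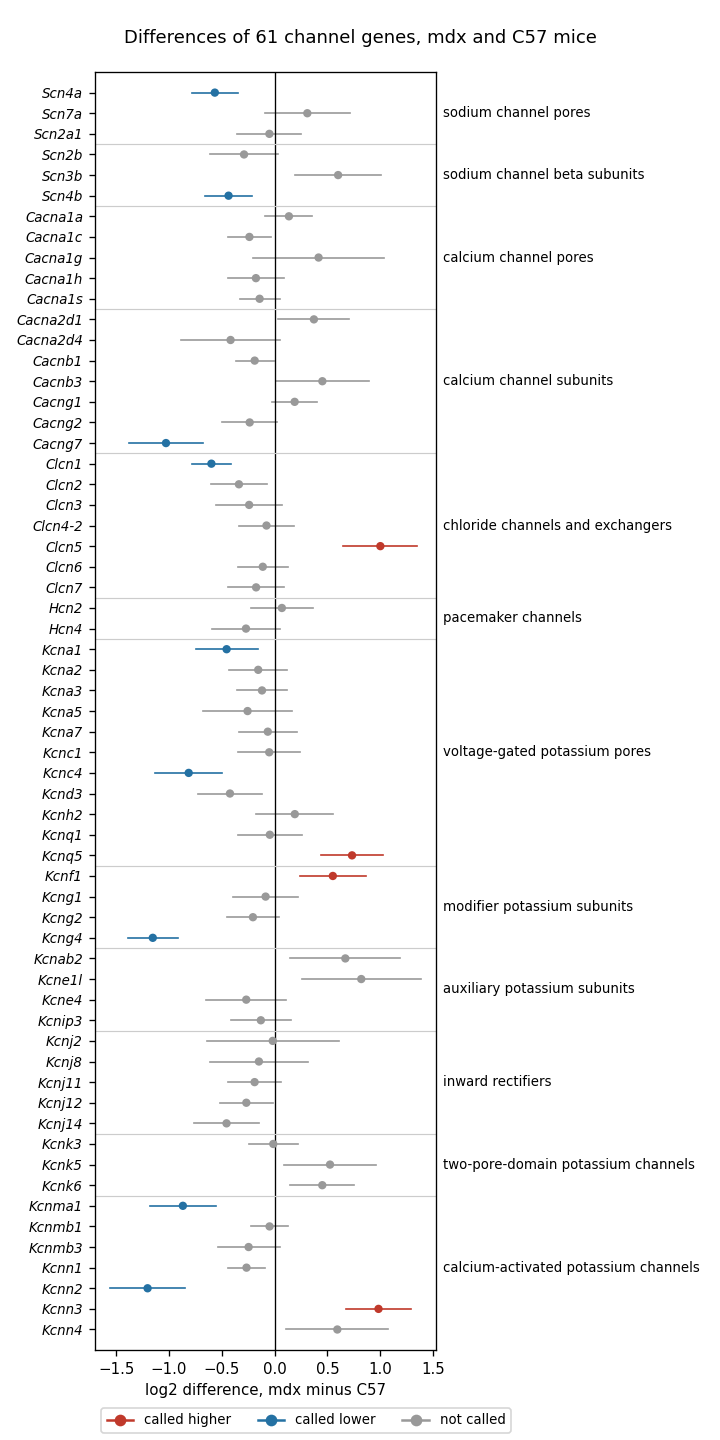
Log2 difference, mdx minus C57, of 61 of the 65 channel genes by class, with 95% confidence intervals from limma. Red genes were called higher and blue genes called lower at an adjusted p under 0.05, and the called genes sit mainly left of 0.

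Of the 15 calls, 12 held whichever mouse was left out, the exceptions being *Kcna1*, *Kcnf1* and *Scn4b*. With array weights, which give treated mouse 2 the least weight (0.256), 27 genes were called, 11 higher and 16 lower. The share of all probe sets called with these weights is not given here. The 27 can therefore not be set against the 12% of the unweighted fit.

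Partners of these channels were counted in the same way, where 7.06% of all tested probe sets rose and 4.96% fell. Of 16 measured genes of excitation-contraction coupling, only *Atp2a2*, the calcium pump of slow and immature fibres, was called, and it rose by 0.76 (adjusted p = 0.000408), while the calcium release channel *Ryr1* differed by -0.26 (adjusted p = 0.145). Of 10 sodium-potassium pump genes, 3 rose, among them *Fxyd5* by 0.98 and *Atp1b4* by 0.61, and none fell. Of 32 other ion channels and regulators, 9 rose and 1 fell. The risers included *Orai2*, a store-operated calcium channel (1.33), *Hvcn1*, a proton channel of phagocytes (1.22), and the ATP-gated channel *P2rx4* (1.10), and the inositol trisphosphate receptor *Itpr3* fell by 0.44. Of 10 anchors and partners of channels in the membrane, *Dlg1* alone was called and fell by 0.38 (adjusted p = 0.0453). These risers were measured beside the higher macrophage markers given above, and the part of those cells was not tested. The methods' t-test after adjustment called 1, 2, 5 and 0 genes in the coupling, pump, other channel and anchor lists.

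The comparison of treated with untreated *mdx* mice asks how channel transcripts stood 2 weeks after the oligonucleotide. Of the 65 genes, 4 rose and 1 fell, all by 0.64 or less. The risers were the endosomal exchangers *Clcn3* and *Clcn4-2*, the calcium channel pore *Cacna1c* and *Kcnn3*, and *Kcng4* fell further. The *mdx* mice are those of the comparison above, so differences against them and against C57 mice are not independent.

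The 5 called genes are 7.69% of the 65, below the 11.1% of all tested probe sets. By direction, 6.15% rose against 7.26% of all, and 1.54% fell against 3.88%. The median difference was 0.04, against 0.02 over all tested probe sets. For 10 genes (15.4%) the treated and *mdx* mice did not overlap, 7 higher and 3 lower, against 16% of all (9.29% higher and 6.69% lower). At an unadjusted p under 0.05 there were 15 of the 65 channel genes, against 4565 of all 14494 probe sets (31.5%). The share called was thus near or under that of the array as a whole.

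*Clcn3* read 6.59, 6.64, 6.31 and 6.31 in *mdx* mice and 7.32, 6.74, 7.21 and 7.08 in treated mice 1 to 4. *Clcn4-2* read 7.41, 7.53, 7.22 and 7.12 in *mdx* and 7.86, 7.95, 7.80 and 7.95 in treated mice. Neither overlapped, although treated mouse 2 was only just above the *mdx* mice for *Clcn3*. *Clcn3* rose by 0.62 (SE 0.13, adjusted p = 0.0199), or 1.54-fold, and *Clcn4-2* by 0.57 (SE 0.11, adjusted p = 0.0146), or 1.48-fold. In C57 mice *Clcn3* was at 6.55 to 6.82 and *Clcn4-2* at 7.20 to 7.53, so every treated mouse exceeded the C57 mice for the second but not for the first. The call for *Clcn3* was lost without any 1 of *mdx* mice 3 and 4 and treated mice 1, 3 and 4 (adjusted p up to 0.0589), and that for *Clcn4-2* without treated mouse 4 (0.0501).

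*Cacna1c*, the pore of the cardiac and smooth muscle calcium channel, read 6.24, 6.27, 6.45 and 6.42 in *mdx* and 6.76, 6.69, 6.58 and 6.55 in treated mice, without overlap. It rose by 0.30 (SE 0.09, adjusted p = 0.0462). *Kcnn3* read 8.11, 7.97, 7.97 and 8.02 in *mdx* and 8.78, 8.42, 8.49 and 8.17 in treated mice. Treated mouse 4 was just above the *mdx* mice, and the gene rose by 0.45 (SE 0.13, adjusted p = 0.0465). Both calls were weak. For *Cacna1c* leaving out any 1 mouse other than treated mouse 2 ended the call (adjusted p up to 0.114), and for *Kcnn3* any 1 other than C57 mouse 2 and treated mouse 2 (up to 0.115).

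*Kcng4* fell by 0.64 (SE 0.10, adjusted p = 0.00787), or 1.56-fold, from the values given above, and was the only 1 of the 5 calls that held with each mouse left out (adjusted p up to 0.0324). The methods' t-test after adjustment called none of the 65 genes, with 15 at its unadjusted p under 0.05 and *Kcng4* at an adjusted p of 0.0684.

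**Figure D4:**
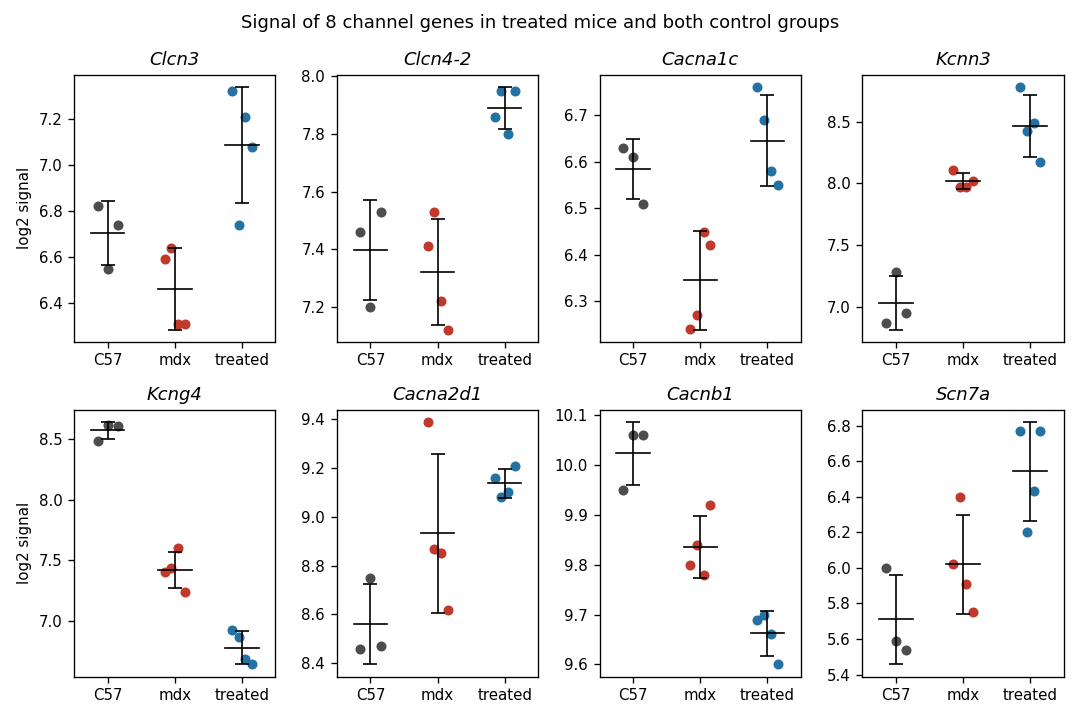
Log2 signal of 8 channel genes in each mouse (points), with the group mean and SD (black), for 3 C57, 4 mdx and 4 treated mice. Each panel has its own scale. Treated mice lie above mdx mice for Clcn3, Clcn4-2, Cacna1c and Kcnn3 and below them for Kcng4.

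The genes that had fallen in *mdx* were mostly not called here. *Clcn1* differed by 0.25 (SE 0.08, adjusted p = 0.0614), with every treated mouse above every *mdx* mouse. *Kcnma1* differed by 0.40 (SE 0.13, adjusted p = 0.0721), *Kcnn2* by 0.38 (0.115) and *Scn4a* by 0.20 (0.170). For *Kcnc4*, *Scn4b* and *Cacng7* the differences were 0.08, 0.04 and -0.12, with 95% intervals of -0.22 to 0.38, -0.17 to 0.25 and -0.44 to 0.20. Of the risers, *Clcn5* differed by -0.03 and *Kcnq5* by 0.30 (adjusted p = 0.123). *Cacna1s*, *Kcnj2* and *Kcnj11* were not called, with differences of 0.13 to 0.33.

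The paper reports the lowest efficacy, by RT-qPCR and mass spectrometry, and the least mRNA restoration for its treated sample T2. If T2 is treated mouse 2, leaving this mouse out also removes the one with the weakest response. Without treated mouse 2, whose array stood apart, 11 genes were called in place of 5. The share of all probe sets called without this mouse is not given here. The 11 can therefore not be set against the 11.1% of the fit on all mice. The added calls were *Clcn1* (0.25, adjusted p = 0.0439), *Kcnma1* (0.43, 0.0430), *Kcnq5* (0.38, 0.0379) and *Scn7a* (0.64, 0.0176), which were higher, and *Kcnab2* (-0.63, 0.0437) and *Kcnn4* (-0.72, 0.0306), which were lower. *Clcn3* then rose by 0.74 (adjusted p = 0.00304) and *Kcng4* fell by 0.67 (adjusted p = 0.00311). Without treated mouse 4, *Kcng4* alone was called.

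Among the partners, none of the 16 excitation-contraction coupling genes and none of the 10 anchors was called by limma, with 4 and 5 at an unadjusted p under 0.05 and 0 and 0 by the methods' t-test after adjustment. In the sodium-potassium pump list *Atp1b4* (0.64) and *Atp1b1* (0.58) rose, and 2 genes fell, *Fxyd5* among them by 0.55. Of the 32 other ion channels 5 rose and none fell, among them *Trpm7* (0.73), *Ano5* (0.62), *Pkd2* (0.54) and *Lrrc8d* (0.29). Of 7 macrophage markers *Cd68* fell by 1.03 and *Mrc1* rose by 0.49 (adjusted p = 0.0377), and the other 5 were not called. Of 6 endothelial markers *Pecam1* and *Tek* rose, by 0.78 and 0.97, and of 4 fat cell markers *Adipoq*, *Plin1* and *Cidec* fell by 1.64, 1.56 and 1.38. *Rgs5* was the only 1 of 6 smooth muscle and pericyte markers called, higher by 1.01, and *Chrna1* the only 1 of 8 regenerating fibre markers, lower by 0.62. Of 5 slow fibre markers 1 rose and 2 fell. Their part in the channel differences was not tested. The methods' t-test after adjustment called 0 genes in each of these partner and marker lists.

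The comparison of treated with C57 mice asks how far channel transcripts of treated muscle stood from wild type. Of the 65 genes, 15 were lower and 9 higher. The lower genes again include the gene that entered only through the C57 mice. *Kcng4*, *Cacng7*, *Kcnn2*, *Kcnc4* and *Kcnj14* were among the lowest relative to C57, and *Kcnn3*, *Kcnq5*, *Clcn5*, *Scn7a* and *Kcnk6* highest. The voltage sensor *Cacna1s* (difference -0.01, 95% interval -0.20 to 0.18), the gamma subunit *Cacng1* (0.01) and *Kcnj11* (0.01) were not called.

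The 24 called genes are 36.9% of the 65, against 24.6% of all tested probe sets. By direction 13.8% were higher, against 15.6% of all, and 23.1% lower, against 8.96%. The median difference was -0.06, against 0.00 over all tested probe sets, and differences ran from -1.80 to 1.43. Treated and C57 mice did not overlap for 26 genes (40%), 9 higher and 17 lower, against 32% of all probe sets (17.9% higher and 14.1% lower). At an unadjusted p under 0.05 there were 28 of the 65 channel genes, against 5756 of all 14494 probe sets (39.7%).

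Against C57, *Kcng4* fell by 1.80 (SE 0.11, adjusted p = 2.93e-06), or 3.47-fold, and *Kcnn3* rose by 1.43 (SE 0.14, adjusted p = 0.000106), or 2.70-fold. *Cacng7* in treated mice read 7.94, 8.02, 7.91 and 8.08, and fell by 1.15 (adjusted p = 0.000645). *Kcnc4* in treated mice read 9.11, 9.62, 9.46 and 9.61. All were below every C57 mouse, with a fall of 0.73 (adjusted p = 0.00498). *Clcn1* was 0.35 below C57 (adjusted p = 0.0138), *Scn4a* 0.37 (0.0198), *Scn4b* 0.40 (0.0176), *Kcnma1* 0.47 (0.0330) and *Kcnn2* 0.83 (0.00467).

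*Cacnb1*, the beta subunit of the muscle calcium channel, read 9.95, 10.06 and 10.06 in C57, 9.80, 9.84, 9.78 and 9.92 in *mdx*, and 9.69, 9.70, 9.66 and 9.60 in treated mice. The 3 groups did not overlap, and the treated mice were lowest. It fell by 0.36 against C57 (SE 0.08, adjusted p = 0.00925), while neither *mdx* against C57 (-0.19, adjusted p = 0.174) nor treated against *mdx* (-0.17, adjusted p = 0.142) was called. *Kcnj14*, an inward rectifier, read 5.39, 5.52 and 5.56 in C57 and 4.61, 4.88, 5.10 and 4.46 in treated mice, and fell by 0.73 (adjusted p = 0.00438). Its treated mean on the linear scale, 27.5, was below the limit of 30, and the methods' t-test ended the call (adjusted p = 0.0664). *Kcnj12*, a strong inward rectifier of muscle, differed by -0.35 (adjusted p = 0.0442) although 1 treated and 1 C57 mouse overlapped (7.41 and 7.34). That call was lost without any 1 mouse other than C57 mouse 1 and treated mouse 2 (adjusted p up to 0.180), and also by the methods' t-test (0.150), with these 2 groups alone (0.0929), without the signal limit (0.0527) and with the replicate block (0.0800).

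On the other side, *Kcnq5* in treated mice read 8.05, 7.58, 7.74 and 7.89, all above C57, a rise of 1.04 (SE 0.14, adjusted p = 0.000445). *Clcn5* read 5.88, 6.52, 6.16 and 5.85 and rose by 0.97 (adjusted p = 0.00192). *Scn7a* read 6.00, 5.59 and 5.54 in C57, 6.02, 6.40, 5.91 and 5.75 in *mdx*, and 6.77, 6.20, 6.43 and 6.77 in treated mice. The treated mice were above every C57 mouse, but treated mouse 2 was below *mdx* mouse 2, and the rise against C57 was 0.83 (adjusted p = 0.00820). *Kcnk6*, a tandem-pore channel, rose by 0.71 (adjusted p = 0.00431), and *Cacna2d1*, which anchors and traffics the calcium channel, by 0.58 (adjusted p = 0.0197), with its second probe set at 1.01 (0.0102). *Scn3b*, *Clcn4-2* and *Cacna1a* differed by 0.66, 0.49 and 0.31. The call of *Cacna1a* was lost without any 1 mouse other than C57 mouse 1 and *mdx* mouse 1 (adjusted p up to 0.158) and under 6 other alternatives (up to 0.202). That of *Scn3b*, whose C57 mean was below the limit of 30, was lost without C57 mouse 2 or 3 or treated mouse 3 (up to 0.103) and with the replicate block (0.0589), and that of *Clcn4-2* without C57 mouse 2 (0.0615).

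**Figure D5:**
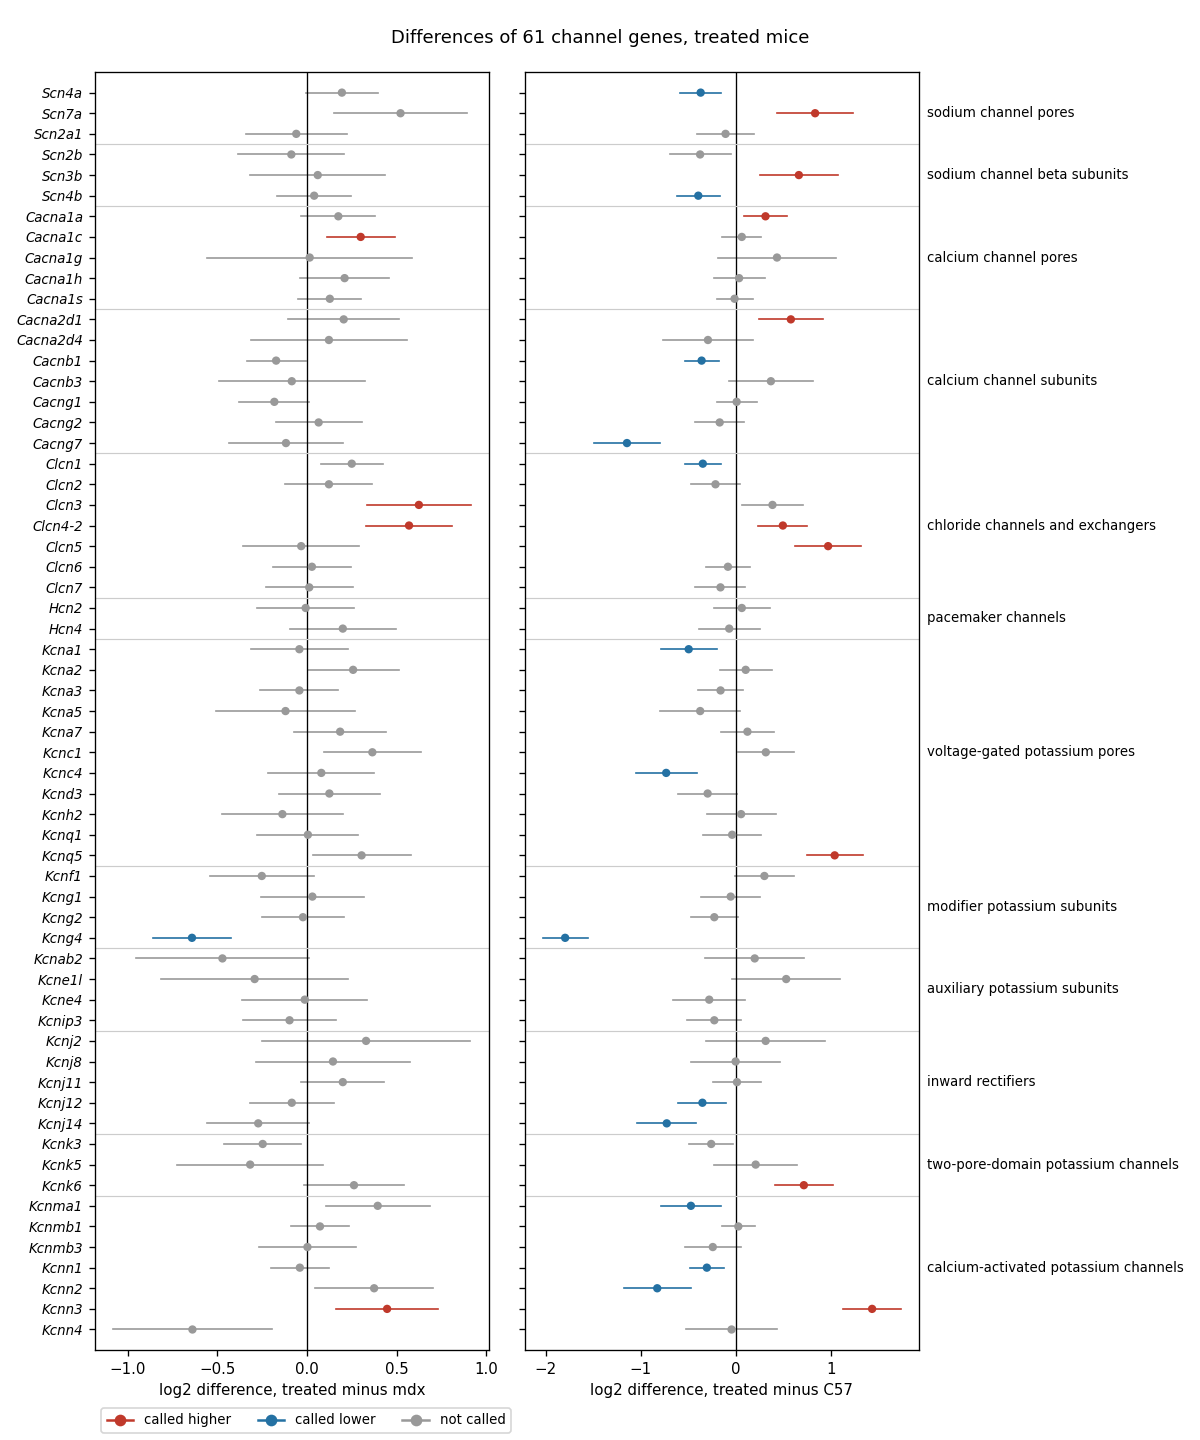
Log2 difference of 61 of the 65 channel genes by class, treated minus mdx on the left and treated minus C57 on the right, with 95% confidence intervals from limma. Red genes were called higher and blue genes called lower at an adjusted p under 0.05, 5 on the left and 22 on the right.

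Of the 24 calls, 13 held with each mouse left out. Without C57 mouse 2 the count fell to 15, with *Cacna1a*, *Clcn1*, *Clcn4-2*, *Kcna1*, *Kcnj12*, *Kcnma1*, *Kcnn1*, *Scn3b* and *Scn4a* lost. *Scn4a* was also lost without C57 mouse 3 or treated mouse 3 (adjusted p up to 0.0791), *Scn4b* without C57 mouse 3 (0.0723), *Cacna2d1* without C57 mouse 1 or 3 (0.0761), *Kcnma1* without C57 mouse 1 or treated mouse 3 (up to 0.120), *Kcna1* without C57 mouse 3 or treated mouse 4 (up to 0.0975), and *Kcnn1* without C57 mouse 3 (0.0761). Repeating the quantile normalisation also ended the calls of *Scn4a* and *Scn4b*, with adjusted p-values of 0.132 and 0.0536. The methods' t-test after adjustment called 13.

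Markers of other cell types also differed between treated and C57 mice. Higher in treated mice were 4 of 5 fibroblast markers (summed linear signal 3468 to 4736 in C57 and 5147 to 7954 in treated mice), 4 of 6 endothelial markers (1487 to 2038 and 2173 to 3242), 5 of 7 macrophage markers and 3 of 8 regenerating fibre markers. Lower were 3 of 5 nerve sheath markers, 3 of 4 fat cell markers (sums of 962 to 1247 and 964 to 1092) and 2 of 5 slow fibre markers (847 to 1216 and 602 to 1234). Of 6 smooth muscle and pericyte markers 2 were higher and 2 lower. The part of these cells in the channel differences was not tested.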

How the data were processed

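The authors hybridised total RNA of each TA to its own Mouse Gene ST 1.1 array and, per their supplementary methods and processing notes, used Affymetrix Expression Console with RMA background correction, sketch-quantile normalisation and median polish. They deposited intensity values on the linear scale for 28350 probe sets, with replicates not pooled, and log2 was taken here. All 11 columns matched a mouse, and 0 columns of sample values were left unmapped. The deposited table pairs 25254 probe sets with a gene symbol, 64 of the 65 channel genes matched the RefSeq gene table, and its probe set positions, given without a build, were not used.

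Following the study's methods, probe sets whose group means were all below 30 were removed, which left 14494. These were fitted over all 11 mice with limma 3.58.1 in R 4.3.3 (lmFit with 1 coefficient per group, then eBayes), and the moderated tests were two-sided. The unpaired t-test of the methods was an alternative, since the moderated test pools the spread of small groups. Other alternatives were array weights, a prior that was robust and followed the mean signal, a fit restricted to both groups of a comparison, a signal limit of 100 or none, centring on array medians, repeated quantile normalisation, averaging the probe sets of each gene, the replicate number as a block and leaving out each mouse. The number of arrays, 3 or 4 per group, limits the precision. Tables and plots were made with Python 3.11.15, pandas 2.3.3, NumPy 2.4.6 and matplotlib 3.10.9. The fit was tested on simulated data.

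Named genes are the 10 largest called rises and falls in *mdx* against C57, the 5 largest in the other comparisons, a list of muscle channels, and partner and cell marker lists; others named in counts fall outside this rule. The members and lists were chosen with earlier results of these data known. Of genes with several probe sets, *Scn2a1* had 14 of 15 below the limit, and *Cacng2* and *Kcnd3* 1 of 2. By the deposited annotation the kept *Kcnd3* probe set lies on the minus strand. The *Kcnd3* probe set below the limit and the RefSeq start of the gene lie on the plus strand. *Kcnd3* is thus counted through a probe set of the opposite strand, and limma did not call it in any comparison. Some of the genes counted are not reported here by name or in the plots.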

Additional observations from a re-analysis of the deposited data

Results flagged for a closer look

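Of 72 groups of 4 mice examined, in which the value farthest out was set against the range of its group, 3 held a mouse that stood apart by Dixon's criterion, where chance alone gives about 5%. *Kcna7*, a voltage-gated potassium pore of muscle, read 9.66 in treated mouse 2 and 9.29 to 9.35 in the other treated mice. *Kcnj11*, the pore of the ATP-sensitive potassium channel, read 9.17 in treated mouse 2 and 8.76 to 8.83 in the others. *Clcn1* read 9.99 in treated mouse 1 and 9.97 in each of the others, a gap only just above the hundredth at which the deposited values resolve. The cause was not tested.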

How the results depend on the processing

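In *mdx* against C57 mice 15 channel genes were called, and the count was 27 with array weights and 13 to 20 with each mouse left out. The other alternatives gave 10 to 20. In treated against *mdx* mice 5 were called, and the count was 0 with the methods' t-test, 3 with only the 2 groups compared, 10 with array weights, and 1 (without treated mouse 4) to 11 (without treated mouse 2) with each mouse left out. In treated against C57 mice 24 were called, and the count was 13 with the methods' t-test and 32 with array weights. It was 15 with a signal limit of 100, at which only 30 channel genes were tested. With each mouse left out it was 15 (without C57 mouse 2) to 27 (without treated mouse 2). The share of all probe sets called is not given for any alternative, so these counts describe only how the channel calls moved. With the replicate number as a block the counts were 13, 3 and 16 in the 3 comparisons, but the numbers do not pair the mice: deviations of same-numbered mice from their group means correlated between -0.30 and 0.15, and not every mouse correlated best with its own number. No called value of a named gene changed sign under any alternative. The median of all tested probe sets moved by less than 0.1 under each scaling. Averaged over their probe sets, 62 of the 65 genes could be tested. The 3 or 4 arrays per group limit what differences could be called, the values are resolved to a hundredth of a log2 unit, and signals near 30 lie close to the median of an array.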

Other observations

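*Kcna2*, a voltage-gated potassium pore, had the same log2 signal (6.01) on 7 of 11 arrays, and the tandem-pore channel *Kcnk3* had the same log2 signal (5.87) on 6. The log2 of every deposited linear value lay within 0.0001 of a whole hundredth, so equal here means equal to the hundredth. Of all 14494 tested probe sets, 74 (0.511%) had 1 value on at least 6 arrays. Neither gene was called in any comparison.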
